A study of Homo sapiens with 24 samples.

Results

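The replication-dependent histone genes were followed in H9 hESCs, an established human embryonic stem cell line, through the first 72 hr of differentiation with and without an shRNA against RUNX1. A transcript cluster, the set of array probes assigned to a gene locus, was taken as a histone cluster when its gene symbols included H1-1 to H1-6, a symbol starting with H2AC, H2BC, H3C or H4C and a number, or an older name starting with HIST1H, HIST2H or HIST3H. This gave 73 of 67528 clusters, of which 6 were assigned to linker histone H1, 18 to H2A, 21 to H2B, 13 to H3 and 15 to H4. By the array's cluster identifiers, 56 lie on chromosome 6, 15 on chromosome 1 and 2 on chromosome 12. The gene table gives 35 of the 73 clusters exactly 1 symbol. The other 38 list several genes, including all 13 clusters of H3 and 13 of the 15 of H4, and many histone genes of a class have nearly identical coding sequences. Such a cluster is named here by its first symbol and its array identifier, and its signal cannot be given to 1 gene. Even a cluster with 1 symbol may take up RNA of close paralogs.

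Total RNA was measured on 24 arrays, 3 for each of 8 groups. The cells were infected with a lentiviral GIPZ vector with a control hairpin that silences nothing (shNS) or a hairpin directed at RUNX1 (shRUNX1, a single hairpin), selected with puromycin and grown without feeders in mTeSR1. Cells were harvested undifferentiated (0 hr) or after 8, 24 or 72 hr in medium with fetal bovine serum (FBS). The study describes the replicates as independent experiments, while the labels give only their numbers and letters. The sources used here do not state whether the RNA was selected for poly(A) before labelling.

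Replication-dependent histone genes supply the histones that package newly made DNA. They are transcribed mainly in S phase, from gene clusters gathered in histone locus bodies around the coactivator NPAT. Their mRNAs end in a stem-loop in place of a poly(A) tail, are bound by SLBP and are degraded quickly when DNA synthesis stops. Replication-independent variants are instead made throughout the cell cycle as polyadenylated mRNAs. H2A, H2B, H3 and H4 form the nucleosome core and H1 binds the linker DNA between nucleosomes. Some clusters chosen by name differ from this description: H2BC20P and H2AC2P are pseudogenes, and H1-6, H2AC1 and H2BC1 encode histones best known from the testis.

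The histone classes differed in the motifs of their promoters. Promoter windows of 300 bases, from 250 before to 50 after the annotated start, were available from RefSeq (GRCh38.p14) for 64 of the 71 histone symbols in the gene table, as 68 windows. Each window was searched on both strands for 5 short motifs: the octamer ATTTGCAT, which binds POU2F1 in histone promoters, CCAAT, the letters of the NF-Y site, the TATA box TATAAA, the H1 box AAACACA, and GGTCC, the core of the H4 element bound by HINFP. No motif contains another, and a match describes the letters only. The windows of H3C4 and H2AC7 have identical bases, so that sequence is counted in both H3 and H2A. Those of H4C14 and H4C15 are also identical and are counted separately in H4. The octamer stood in 14 of 19 H2B windows and 11 of 17 H2A windows but in 1 of 13 H3 windows and 0 of 6 H1 and 0 of 13 H4 windows, against 1.77% of all 35116 promoters. CCAAT stood in all 6 H1, 17 H2A, 19 H2B and 13 H3 windows and in 3 of 13 H4 windows, against 34.6% of all promoters. The H1 box stood in all 6 H1 windows, 1 H2A and 2 H3 windows, against 5.64% of all promoters. GGTCC stood in 12 of 13 H4 windows, against 46.3%. TATAAA stood in 3 H1, 12 H2A, 14 H2B, 9 H3 and 7 H4 windows, against 11.5%.

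**Figure D1:**
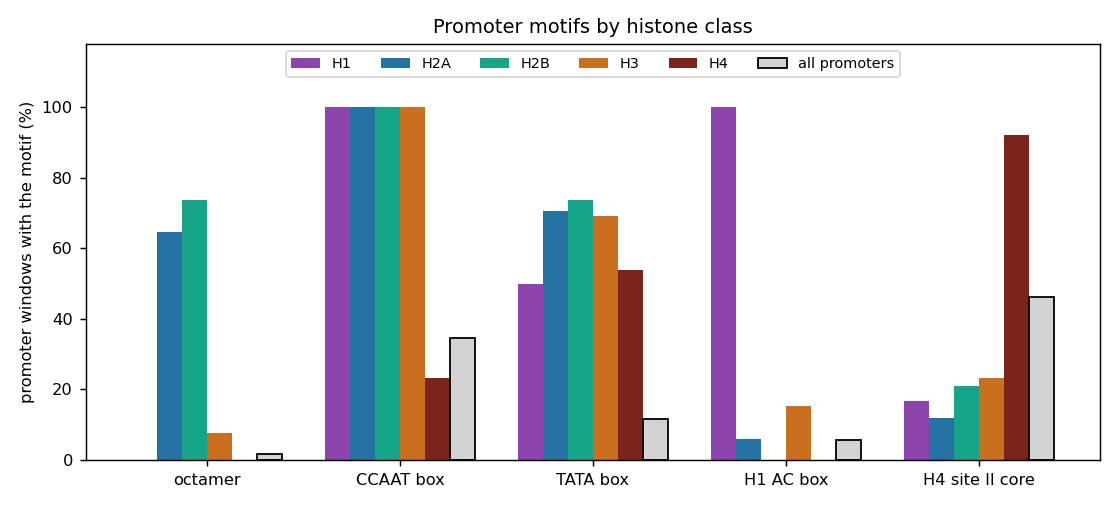
Share (%) of 300-base RefSeq promoter windows that hold each motif on either strand, for the histone classes (coloured bars: H1, 6 windows; H2A, 17; H2B, 19; H3, 13; H4, 13) and for all 35116 promoters (grey). The octamer is seen mostly in H2A and H2B, the H1 box in all 6 H1 windows and the H4 core in 12 of 13 H4 windows.

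The promoters below are shown for genes whose signals are described in the following paragraphs, or as the pattern of their class, 5′ to 3′ in the direction of the gene with the motif of the class in capitals. H1-6 (chr6:26108086-26108385, minus strand) and H1-3 (chr6:26234938-26235237, minus strand), linker histones, each hold 1 H1 box. H2BC14 (chr6:27814772-27815071, plus strand) shows the octamer of H2B promoters. H2BC26 (chr1:228457853-228458152, plus strand) is shown because it faces H2AC25: the H2AC25 window lies on the opposite strand and shares 271 bases with it. The octamer letters were in neither window of this pair, and H2BC26 holds CCAAT 3 times, once on the other strand. H3C3 (chr6:26045134-26045433, plus strand) shows the repeated CCAAT of an H3 promoter, with 4 matches. H4C15 (chr1:149861110-149861409, minus strand) is the first symbol of both H4 clusters called lower in shNS cells, and of another, TC06001424, that was not called. The 300 bases of H4C15 are identical to those of H4C14. It holds GGTCC on each strand.
H1-6: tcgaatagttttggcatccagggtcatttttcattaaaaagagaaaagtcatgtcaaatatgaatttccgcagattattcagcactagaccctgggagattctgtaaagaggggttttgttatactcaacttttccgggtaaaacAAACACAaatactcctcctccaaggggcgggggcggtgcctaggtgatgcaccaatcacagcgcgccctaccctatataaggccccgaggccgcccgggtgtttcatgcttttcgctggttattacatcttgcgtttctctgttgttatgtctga
H1-3: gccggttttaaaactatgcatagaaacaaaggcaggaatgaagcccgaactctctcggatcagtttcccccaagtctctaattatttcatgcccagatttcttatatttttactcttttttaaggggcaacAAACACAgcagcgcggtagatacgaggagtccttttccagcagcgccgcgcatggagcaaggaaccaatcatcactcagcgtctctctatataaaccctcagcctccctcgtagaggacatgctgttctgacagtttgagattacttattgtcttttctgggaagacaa
H2BC14: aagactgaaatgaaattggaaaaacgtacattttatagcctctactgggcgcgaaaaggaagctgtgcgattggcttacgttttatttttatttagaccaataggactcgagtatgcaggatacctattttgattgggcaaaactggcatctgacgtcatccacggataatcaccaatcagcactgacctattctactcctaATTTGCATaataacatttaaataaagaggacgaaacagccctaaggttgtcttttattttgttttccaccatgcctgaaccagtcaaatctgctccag
H2BC26: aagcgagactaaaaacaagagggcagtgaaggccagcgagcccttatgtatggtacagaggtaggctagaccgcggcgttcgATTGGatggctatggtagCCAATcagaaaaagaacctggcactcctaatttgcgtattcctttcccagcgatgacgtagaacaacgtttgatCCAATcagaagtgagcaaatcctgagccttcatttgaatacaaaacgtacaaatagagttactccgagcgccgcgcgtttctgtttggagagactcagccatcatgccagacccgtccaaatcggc
H3C3: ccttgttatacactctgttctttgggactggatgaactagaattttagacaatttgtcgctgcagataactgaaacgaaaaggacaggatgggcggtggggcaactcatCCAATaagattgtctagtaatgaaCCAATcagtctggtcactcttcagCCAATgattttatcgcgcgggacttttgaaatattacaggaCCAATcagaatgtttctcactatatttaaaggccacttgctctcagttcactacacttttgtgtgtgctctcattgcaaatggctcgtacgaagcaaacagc
H4C15: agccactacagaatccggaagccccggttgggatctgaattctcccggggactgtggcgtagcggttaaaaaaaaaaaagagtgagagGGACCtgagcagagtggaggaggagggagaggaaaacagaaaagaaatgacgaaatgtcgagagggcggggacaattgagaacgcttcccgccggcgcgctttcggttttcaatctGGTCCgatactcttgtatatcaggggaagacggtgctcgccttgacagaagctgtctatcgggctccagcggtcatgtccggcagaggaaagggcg

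Signals are log2 values, and a difference is the first group named minus the second with its standard error (SE) from limma. Calls needed a fold change above 1.5 as well as an adjusted p (Benjamini-Hochberg) below 0.05. Clusters with 1 symbol were tested among 23781 such clusters, those with several among all 67528. Array medians lay between 6.189 and 6.325, and replicates correlated at r = 0.987 to 0.997 over the tested clusters. The RUNX1 cluster, which also lists LOC100506403, was lower in shRUNX1 cells by 0.03 to 0.37 at the 4 times and was not called (adjusted p = 0.264 to 0.936 from limma). The study reports the knockdown at the protein level, by western blot. Of the hESC markers 10 of 11 were measured, and 5 of them (CRIPTO, DPPA4, DNMT3B, SOX2 and SALL4) were called lower in shNS cells at 24 hr, whereas 0 of 5 mesendoderm markers was called at any time in either arm. The mean signal was above the median of tested values, 6.25, for 62 of the 73 histone clusters. Among the 11 below it were the testis genes H2AC1, H2BC1 and H4C7, a divergent H4 gene.

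Histone signals went up and down together from array to array within the groups. In the 24 hr groups, shNS replicate 3 was the lowest of its group for 66 of the 73 clusters and shRUNX1 replicate 2 for 69. At 72 hr shRUNX1 replicate 2 was the lowest of its group for 71 clusters, below replicates 1 and 3. At 0 hr shRUNX1 replicate 2 was the highest for 64. The median over the 73 clusters of the signal centred on each cluster's mean was 0.80, -0.24 and 0.46 for shRUNX1 replicates 1, 2 and 3 at 72 hr and 0.12, -0.77 and -0.18 at 24 hr. In shNS cells it was 0.08, 0.08 and -0.56 at 24 hr and -0.18, -0.01 and 0.02 at 72 hr. The 8 hr arrays lay between -0.24 and 0.00 in shNS and between -0.02 and 0.03 in shRUNX1 cells, and the latter range was the narrowest of the 8 groups.

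**Figure D2:**
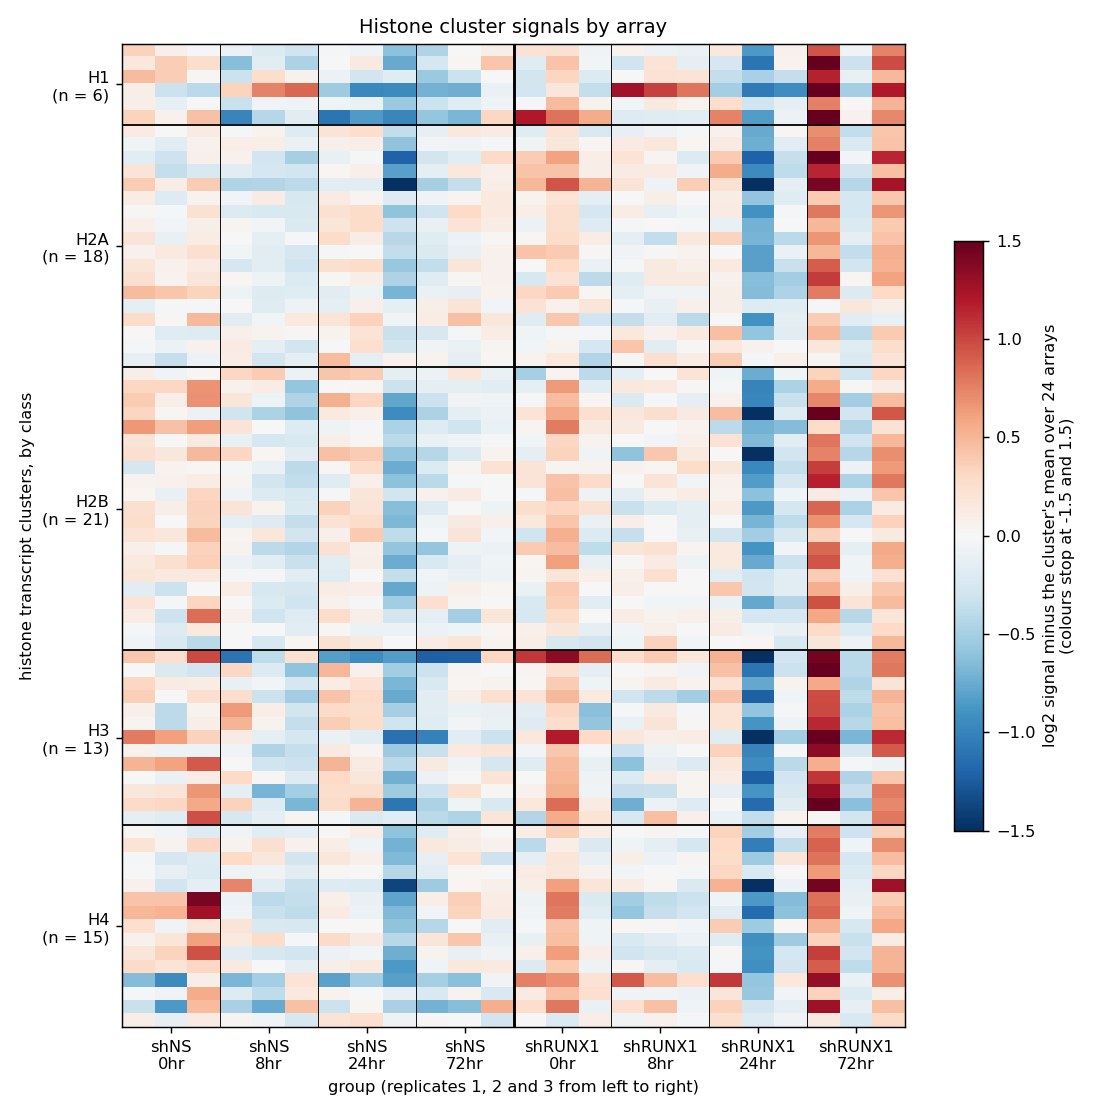
Log2 signal of each of the 73 histone clusters (rows, by class and by falling mean within a class) on each of 24 arrays (columns, 3 a group), minus the cluster's mean over all arrays. Columns that are one colour nearly from top to bottom, such as shRUNX1 replicate 2 at 24 hr (blue) and replicate 1 at 72 hr (red), are arrays on which most histone clusters moved together.

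After group means were removed, the deviation of a cluster was correlated with the median deviation of the other histone clusters. The median r was 0.894 over 24 arrays, and 70 of 73 clusters had r over 0.5. The same figure for 23746 other tested clusters was a median of 0.074, with 10.2% over 0.5. Those all have 1 symbol, whereas 38 of the histone clusters list several genes, often the same ones. Such clusters may take up the same RNA, so the 73 values are not those of 73 separate genes. The spread within groups was also wider for histones, with a median pooled SD of 0.34 against 0.15. The lowest r was 0.052, for the cluster that lists H2AJ first and H2AC20 second. H2AJ is a replication-independent H2A gene with a polyadenylated mRNA. Class scores (the median over the clusters of a class) correlated at r = 0.851 to 0.986 between any pair of classes, lowest for H1 with H2B and highest for H2B with H4. These correlations are over the same 24 arrays as deviations from group means and are given as a description.

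**Figure D3:**
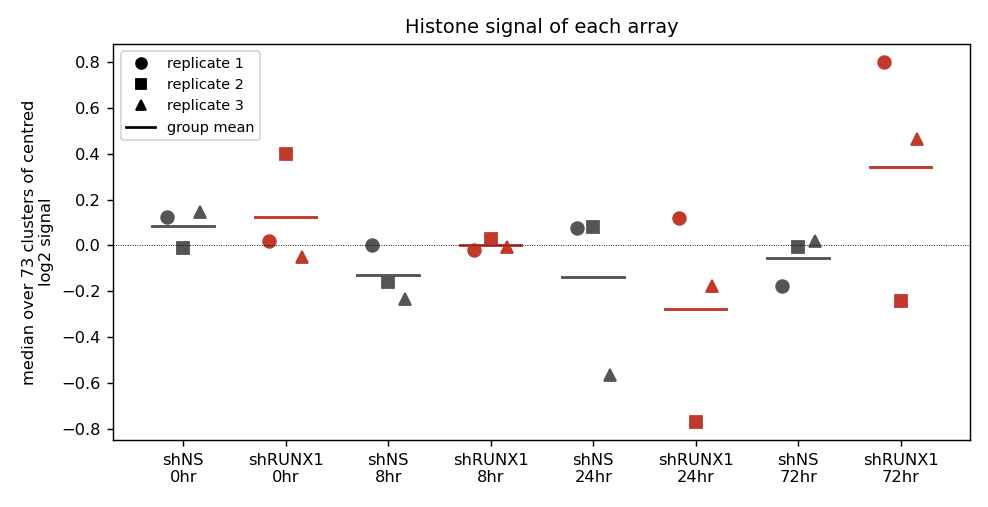
Median over the 73 histone clusters of the log2 signal centred on each cluster's mean, for each of 24 arrays (points, with shapes for replicates 1 to 3), and the mean of each group of 3 (line). In shRUNX1 cells the 72 hr arrays run from -0.24 to 0.80 and the 24 hr arrays from -0.77 to 0.12, wider than the 8 hr arrays of either arm.

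Several other gene lists, not only those of the cell cycle, deviated with the histones. The score of 33 measured genes of DNA replication and the G1/S transition correlated with the histone score at r = 0.804 (Spearman's rho 0.79, and r = 0.723 without the 2 most extreme arrays). The r was 0.811 for 7 replication-independent histone genes, 0.782 for 14 chaperones that hand histones to new DNA, 0.689 for 19 genes of mitosis and G2/M and 0.659 for 16 genes of histone pre-mRNA 3′ end processing. Without the same 2 arrays these were 0.789, 0.669, 0.638 and 0.646, in that order. For 12 genes of cell cycle exit r was 0.037 with all arrays. The score also moved with the array median, at r = 0.443 with all arrays and 0.096 without the 2 most extreme. Fewer cells in S phase and less histone mRNA per cell cannot be told apart in bulk RNA, and their part in these swings was not tested.

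In shNS cells most histone clusters were lower after differentiation began, but few passed the test. At 8 hr 59 of 73 were lower than at 0 hr with a median of -0.24 (all tested clusters 0.01), at 24 hr 62 (median -0.23, tested 0.01) and at 72 hr 55 (median -0.17, tested 0.01). At 8 hr 3 clusters were called and all 3 were lower, at 24 hr 5 lower and at 72 hr 1 lower. The share of calls was under that of all tested clusters: 8.41% of clusters with 1 symbol and 5.59% of all clusters were called at 8 hr, 15.7% and 12.6% at 24 hr and 15.1% and 12.1% at 72 hr. The arrays did not overlap with those at 0 hr for 28 clusters at 8 hr (26 of them lower), 18 at 24 hr (17 lower) and 23 at 72 hr (22 lower), or 38.4%, 24.7% and 31.5%. The background of clusters without overlap was 31.6% of those with 1 symbol and 24.8% of all at 8 hr, 44.5% and 35.7% at 24 hr and 42.8% and 34.7% at 72 hr. Between 24 and 72 hr 2 clusters did not overlap (background 18.8% and 14%), 47 of 73 were higher with a median of 0.06, and limma called 0 (0 with an unadjusted p under 0.05, background 12.2% and 7.95%), where 1.17% and 0.495% were called in the background.

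Both H4 clusters on chromosome 1 that list H4C15 first of 14 genes fell within 8 hr. The cluster TC01001173 had signals of 9.39, 9.40 and 10.39 at 0 hr, 8.88, 8.58 and 8.61 at 8 hr and 9.04, 8.86 and 8.17 at 24 hr. All arrays at 8 and 24 hr lay below those at 0 hr, of which replicate 3 was the highest. Its difference was -1.04 at 8 hr (SE 0.30, adjusted p = 0.0385 from limma) and -1.04 at 24 hr (adjusted p = 0.0191). For TC01003192 the signals were 9.27, 9.30 and 10.04 at 0 hr, 8.72, 8.44 and 8.39 at 8 hr and 8.90, 8.69 and 8.11 at 24 hr. It fell by 1.02 at 8 hr (SE 0.29, adjusted p = 0.0322) and by 0.97 at 24 hr (adjusted p = 0.0213). The 14 symbols of both clusters are genes of the same H4 protein, so these are not independent measurements of different genes. In the other 13 H4 clusters the differences at 24 hr lay between -0.78 and 0.10 and 0 was called. Most of these 13 list the same 14 symbols. Of those, TC06000224 differed by -0.72 at 8 hr and was not called (adjusted p = 0.132 from limma). TC06001424 on chromosome 6 also lists H4C15 first and was the brightest H4 cluster. Its shNS group mean was 15.38 before differentiation, 15.34 after 8 hr in FBS and 15.30 after 24 hr. Leaving out replicate 3 of 0 hr or any array of 8 hr ended the calls of TC01001173 and TC01003192 at 8 hr. So did a fit with the letter in each array's sample description as a block (adjusted p = 0.0589 and 0.0522 from limma). Leaving out replicate 3 of 0 or of 24 hr ended both at 24 hr. Of 16 alternatives, 7 ended each call at 8 hr. At 24 hr 4 ended that of TC01001173 and 3 that of TC01003192.

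Among H3 clusters, TC06000174, which lists H3C6 first of 10 genes, fell at 8 hr in shNS cells. Its signals were 8.67, 8.77 and 9.09 at 0 hr and 8.17, 7.87 and 7.84 at 8 hr, with no overlap. The difference was -0.88 (SE 0.26, adjusted p = 0.0405 from limma), and leaving out any of the 6 arrays compared ended the call, as did the letter block (adjusted p = 0.051). H1-3, a somatic linker histone, was low on every array at 24 hr in shNS cells, at 4.71, 4.96 and 4.83 against 6.14, 5.87 and 6.24 at 0 hr. It fell by 1.26 (SE 0.39, adjusted p = 0.0187), although all these signals were below the median of tested values. Without replicate 3 of 0 hr or replicate 1 of 24 hr it was not called. Over all classes, leaving out shNS replicate 3 of 24 hr lowered the calls at 24 hr from 5 to 2 and brought the median over 73 clusters to -0.00, and leaving out replicate 3 of 0 hr also left 2.

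H2AC25 and H2BC20P fell at 24 hr in both arms. H2AC25, a core histone gene outside the main cluster on chromosome 6, had signals of 7.14, 7.08 and 7.0 at 0 hr and 6.50, 6.59 and 5.97 at 24 hr in shNS cells. In shRUNX1 cells it had 6.98, 7.06 and 6.69 at 0 hr and 6.75, 6.02 and 6.20 at 24 hr, where replicate 1 overlapped the 0 hr group. The differences were -0.72 (SE 0.20, adjusted p = 0.00917 from limma) in shNS and -0.59 (SE 0.20, adjusted p = 0.0403) in shRUNX1 cells. The call in shNS cells was lost in 2 of 17 alternatives, 1 of them without replicate 3 of 24 hr. That in shRUNX1 cells was lost in 9 of 17 alternatives: without replicate 1 or 2 of 0 hr or 2 or 3 of 24 hr, after quantile normalization or median centring, when all clusters were adjusted together, with only the arrays compared and with the methods' ANOVA. H2BC20P, a pseudogene of the H2B family whose cluster may take up RNA of functional copies, fell from 10.24, 10.03 and 10.22 to 9.52, 9.57 and 9.11 in shNS cells. In shRUNX1 cells the signals were 9.64, 10.37 and 9.72 at 0 hr and 9.19, 8.88 and 8.94 at 24 hr, again with no overlap. It fell by 0.76 in shNS cells (SE 0.19, adjusted p = 0.00416) and by 0.91 in shRUNX1 cells (SE 0.19, adjusted p = 0.00177). At 72 hr it was still lower in shNS cells, at 9.40, 9.29 and 9.49 (difference -0.77, adjusted p = 0.00402). H2BC26, the neighbour of H2AC25 across their shared promoter, was lower by 0.32 at 24 hr in shNS cells and by 0.43 in shRUNX1 cells and was not called (adjusted p = 0.237 and 0.129).

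In shRUNX1 cells most histone clusters were lower at 24 hr and higher at 72 hr, and few were called. At 24 hr 68 of 73 clusters were lower than at 0 hr (median -0.37, all tested clusters -0.02), 3 were called lower and 0 higher. At 72 hr 65 of 73 were higher than at 0 hr (median 0.19, tested -0.01), and limma called 0 (6 with an unadjusted p under 0.05, background 29.3% and 23%). From 24 to 72 hr 72 of 73 were higher (median 0.62, tested 0.00), 45 had an unadjusted p under 0.05 and 3 were called higher. At 8 hr 56 of 73 were lower than at 0 hr (median -0.11) and 1 was called, higher. The background of calls was 7.01% of clusters with 1 symbol and 4.42% of all clusters at 8 hr, 10.9% and 7.85% at 24 hr, 7.52% and 5.47% at 72 hr, and 1.77% and 0.472% for 72 against 24 hr. Unadjusted p under 0.05 held for 17.4% of clusters with 1 symbol and 12% of all clusters in that last comparison, against 45 of 73 histones. The arrays did not overlap for 17 clusters at 8 hr, 15 at 24 hr and 0 at 72 hr against 0 hr, and for 7 between 24 and 72 hr. The background of clusters without overlap was 30.7% and 23.5%, 34.4% and 27.6%, 31.3% and 26.4%, and 17.9% and 14.3%. These counts rest on few arrays. Without shRUNX1 replicate 2 of 24 hr, 0 clusters were called from 24 to 72 hr (background 0.479% and 0.0607%) and the median was 0.37, and without replicate 2 of 72 hr 32 were called (background 4.47% and 1.79%) with a median of 0.87. Leaving out replicate 1 of 24 hr gave 17 calls (background 3.35% and 1.02%), replicate 1 of 72 hr 0, and replicate 3 of either time 1. From 0 to 72 hr 8 were called without replicate 2 of 72 hr (background 6.18% and 4.66%) and 3 without replicate 2 of 0 hr (background 8.64% and 5.7%). At 8 hr the letter block gave 2 calls in place of 1.

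The third call at 24 hr in shRUNX1 cells was the H3 cluster TC06001427, which lists H3C7 first of 10 genes. Its signals were 15.05, 15.33 and 14.83 at 0 hr and 14.52, 12.25 and 13.70 at 24 hr. Replicate 2 was lowest at 24 hr, and no array overlapped those at 0 hr. The difference was -1.58 (SE 0.50, adjusted p = 0.0434 from limma), and in shNS cells it was -1.41 and not called (adjusted p = 0.0541). Leaving out shRUNX1 replicate 1 of 24 hr raised the number of histone clusters called at 24 hr from 3 to 15 (background in that fit 12.5% and 8.36%), and leaving out replicate 2 or 3 of 24 hr, or 1 or 2 of 0 hr, lowered it to 1. TC06001427 was called without replicate 1 of 24 hr and not without any of the other 5 arrays.

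H1-6, the testis linker histone H1t, was the only histone cluster called higher at 8 hr. In shRUNX1 cells its signals were 6.43, 6.88 and 6.36 at 0 hr, 7.98, 7.74 and 7.52 at 8 hr, 6.20, 5.65 and 5.78 at 24 hr and 8.62, 6.20 and 7.92 at 72 hr. In shNS cells they were 6.81, 6.40 and 6.31, then 7.05, 7.46 and 7.58, then 6.18, 5.75 and 5.76, and at 72 hr 6.0, 5.98 and 6.62. In both arms every array at 8 hr was above those at 0 and 24 hr. The rise was 2.28-fold in shRUNX1 cells (SE 0.38 on the log2 scale, adjusted p = 0.0403 from limma) and 0.86 on the log2 scale in shNS cells (SE 0.38, adjusted p = 0.147), and the change of the difference between the arms was 0.33 (SE 0.54, adjusted p = 0.953). The other 5 H1 clusters lay between -1.04 and 0.20 at 8 hr in shRUNX1 cells. The call was kept without replicate 2 of 0 hr and lost without any of the other 5 arrays compared.

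The 3 clusters called from 24 to 72 hr in shRUNX1 cells, named because they are so few, were H1-6, H1-1 and H2BC26. H1-6 was higher by 1.70 (SE 0.38, adjusted p = 0.0203 from limma). H1-1, a somatic linker histone, had signals of 6.39, 6.27 and 6.40 at 24 hr and 7.91, 6.64 and 7.24 at 72 hr, higher by 0.91 (SE 0.23, adjusted p = 0.0398). H2BC26, a core histone gene, had 5.91, 5.24 and 5.58 at 24 hr and 6.97, 6.21 and 6.50 at 72 hr, higher by 0.98 (SE 0.19, adjusted p = 0.0108). Each of them was without overlap, with replicate 2 the lowest of the 3 arrays at 72 hr. H1-6 and H1-1 lost the call without replicate 2 or 3 of 24 hr or replicate 1 or 3 of 72 hr, and H2BC26 without replicate 2 of 24 hr or replicate 1 of 72 hr.

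**Figure D4:**
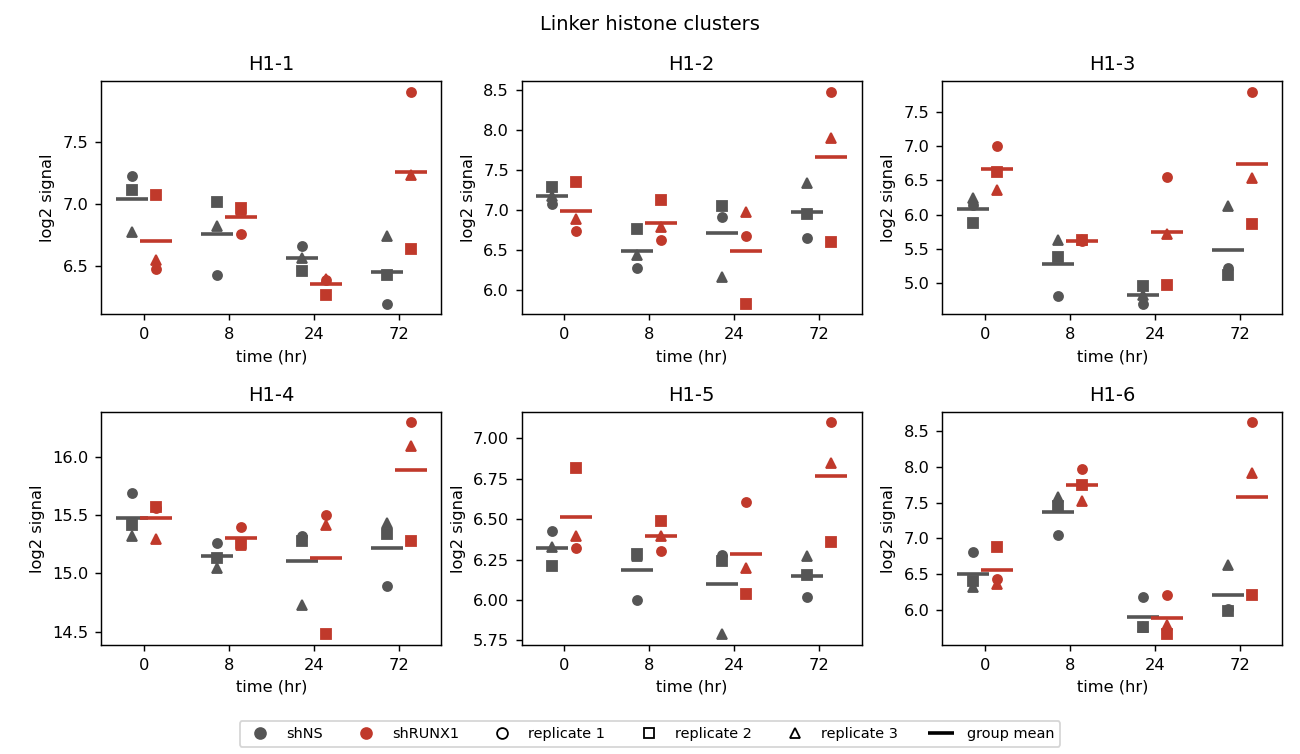
Log2 signals of the 6 linker histone clusters by time (hr) for shNS (grey) and shRUNX1 (red) cells, with shapes for replicates 1 to 3 and dashes for group means. H1-6 is high at 8 hr in both arms, and at 72 hr replicates 1 and 3 of shRUNX1 lie above shNS for all 6 genes while replicate 2 lies near or among them.

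Whether depletion of RUNX1 changed histone expression was tested at each time. At 72 hr 70 of 73 clusters were higher in shRUNX1 than in shNS cells with a median of 0.37 (all tested clusters 0.02, of which 55.9% were higher), yet limma called 0. At the other times the direction was not shared: 36 of 73 were higher at 0 hr (median -0.01), 51 at 8 hr (median 0.14) and 17 at 24 hr (median -0.17). Calls were 0 of 73 at each of the 4 times, where the background was 1% of clusters with 1 symbol and 0.193% of all clusters at 0 hr, 0.00421% and 0.00148% at 8 hr, 0.114% and 0.0133% at 24 hr and 1.6% and 0.27% at 72 hr. Unadjusted p under 0.05 was reached by 3, 1, 5 and 18 clusters, against 21%, 8.53%, 16.4% and 20.2% of clusters with 1 symbol and 14.6%, 8.23%, 13.2% and 14.5% of all clusters. The groups of arrays did not overlap for 10, 17, 2 and 4 histone clusters, or 13.7%, 23.3%, 2.74% and 5.48% of them, against a background of 24.8%, 14.7%, 20.3% and 21% of clusters with 1 symbol and 20.4%, 13.8%, 17.5% and 18% of all clusters.

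By class, the 72 hr medians were 0.74 for H1, 0.33 for H2A, 0.34 for H2B, 0.49 for H3 and 0.30 for H4, and all 6 H1, all 21 H2B and all 13 H3 clusters were higher in shRUNX1 cells. H2AC6, a core H2A gene, was an exception, lower by 0.21 to 0.52 at all 4 times (adjusted p = 0.238 to 0.722). The linker histones came nearest to a call. H1-6 differed by 1.38 (SE 0.38, adjusted p = 0.0547 from limma) with shRUNX1 replicate 2, at 6.20, inside the range of the shNS arrays. H1-5, a somatic linker histone, had 7.10, 6.36 and 6.85 in shRUNX1 and 6.02, 6.15 and 6.27 in shNS cells, with no overlap and a difference of 0.62 (SE 0.18, adjusted p = 0.0618). H1-1 differed by 0.80 (SE 0.23, adjusted p = 0.0624) and H1-3 by 1.24 (SE 0.39, adjusted p = 0.0809). H1-4, another somatic linker histone, had 16.29, 15.27 and 16.09 against 14.89, 15.34 and 15.43 and differed by 0.66 (SE 0.25, adjusted p = 0.139).

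Several lists of cell state markers also differed between arms at 72 hr, though few markers were called. Their part in the higher histone signals was not tested. Over all tested clusters the median was 0.02, and 1.6% of clusters with 1 symbol were called. Of 10 undifferentiated hESC markers 7 were higher in shRUNX1 cells (median 0.30, lowest -0.98, 0 called). The log2 of their summed signal was 15.96 to 16.58 against 15.62 to 15.92. All 4 neuroectoderm markers were higher (median 0.93, FEZF1 called at 2.83), with a sum of 11.0 to 13.14 against 9.41 to 11.29. All 5 mesenchymal markers were lower (median -0.76, POSTN called at -2.20), with a sum of 13.92 to 14.94 against 14.96 to 15.31. The 5 mesendoderm markers had a median of 0.03 and the 4 endoderm markers -0.01, with 0 called in both lists. Some offsets preceded 72 hr. Of the mesenchymal markers 4 of 5 were lower in shRUNX1 cells at 0 hr (median -0.26, 1 called, background 1%). At 24 hr all 5 were lower (median -0.43, 0 called). The neuroectoderm markers went the other way at 0 hr, with all 4 lower (median -0.55, 0 called), and 6 of 10 hESC markers were higher then (median 0.09, 0 called).

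Leaving out shRUNX1 replicate 2 of 72 hr raised the calls at 72 hr from 0 to 19 of 73, all higher in shRUNX1 cells, with 71 of 73 clusters higher and a median of 0.67. In the same fit 5.82% of clusters with 1 symbol and 2.68% of all clusters were called, against 11 of 35 and 8 of 38 histones. The 19 comprised all 6 H1, 4 H2A, 5 H2B and 4 H3 clusters and 0 of 15 H4 clusters. Without shNS replicate 3 of 72 hr 3 were called (background 3.71% and 1.14%). With each of the arrays compared left out in turn, the median over the 73 clusters ran from 0.15 to 0.67. Arrays carry a letter in their sample descriptions, A, B and C in shNS and C, D and E in shRUNX1 cells, whose meaning the sources used here do not give. Within letter C, the only letter with both arms, 72 of 73 clusters were higher in the shRUNX1 array at 72 hr (median 0.76) and 71 of 73 at 24 hr (median 0.72), the latter opposite to the comparison of all arrays. At 0 hr 23 of 73 were higher within letter C (median -0.12) and at 8 hr 53 (median 0.19). Letter C is replicate 3 in shNS and replicate 1 in shRUNX1 cells. At 24 hr the first was the lowest of its group for 66 of 73 clusters and the second the highest for 66. At 72 hr shNS replicate 3 was the highest of its group for 34 clusters and shRUNX1 replicate 1 for 62. The comparisons within the letter are 1 array against 1, so no test was made.

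**Figure D5:**
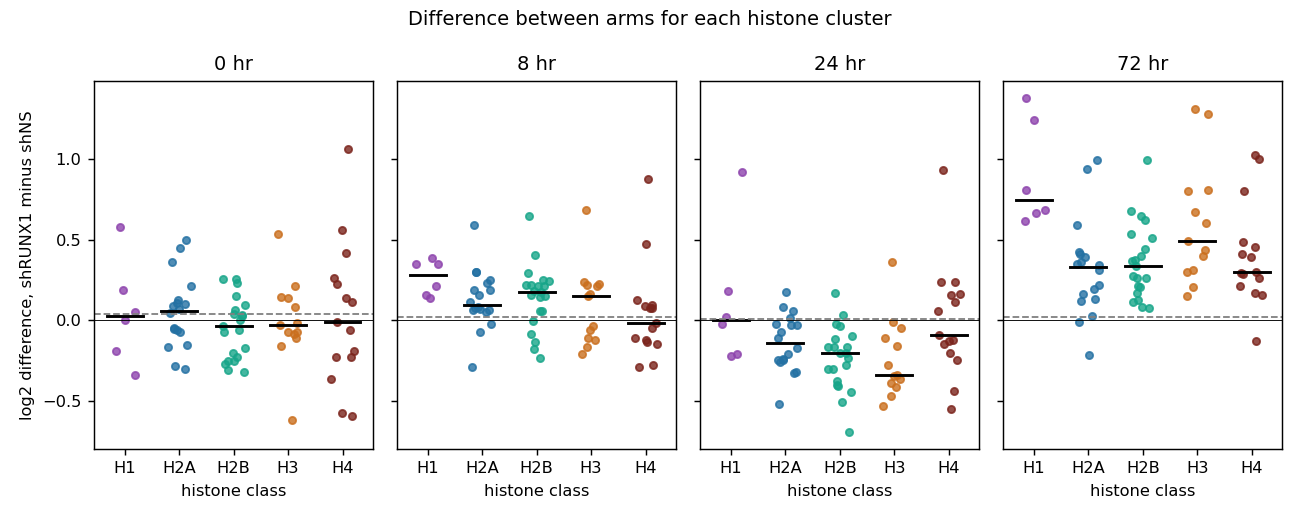
Log2 difference (shRUNX1 minus shNS) of each histone cluster by class at 0, 8, 24 and 72 hr. Each point is 1 cluster, black lines are class medians and the dashed grey line is the median of all 23781 tested clusters. At 72 hr 70 of 73 points lie above 0 and the H1 median is 0.74, while at 24 hr 56 of 73 lie below 0.

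The H4 cluster TC06000175, which lists H4C6 first of 14 genes, was chosen after its values were seen because its difference was alike at all 4 times. Its signals at 0 hr were 6.99, 6.92 and 6.44 in shRUNX1 and 5.58, 5.28 and 6.32 in shNS cells, without overlap. The difference was 1.06 at 0 hr (SE 0.37, adjusted p = 0.195 from limma), 0.88 at 8 hr (adjusted p = 0.569), 0.93 at 24 hr (adjusted p = 0.295) and 1.02 at 72 hr (adjusted p = 0.2). At 72 hr the signals were 7.54, 6.13 and 6.92 against 5.73, 5.61 and 6.18, where 1 shRUNX1 array overlapped. Of the 14 other H4 clusters, none differed by more than 0.56 at 0 hr in the same direction.

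The change of the difference between the arms over time was tested directly. From 0 to 72 hr it was positive for 68 of 73 clusters (median 0.43, all tested clusters -0.02), and limma called 0 (7 with an unadjusted p under 0.05, background 14% and 9.58%), with 0.00421% and 0% called in the background. H1-1 came nearest at 1.14 (SE 0.33, adjusted p = 0.142 from limma). From 0 to 8 hr 49 of 73 were positive (median 0.13) and from 0 to 24 hr 18 (median -0.17), with 0 called in both. An unadjusted p under 0.05 was reached by 0 in both (background 5.9% and 4.82% at 8 hr, 7.46% and 5.78% at 24 hr), with a background of 0.00421% and 0.00296% at 8 hr and 0% at 24 hr. These differences share their 0 hr arrays with the comparisons above.

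Genes that act on histone mRNAs were examined from lists of known function. Among 11 measured transcription factors and regulators of histone genes, CASP8AP2 (FLASH), a histone locus body protein that also acts in 3′ end processing, fell in shNS cells by 0.60 at 8 hr, 0.91 at 24 hr (adjusted p = 1.57e-05 from limma) and 0.71 at 72 hr. NPAT, the coactivator of histone transcription, fell by 0.63 at 24 hr in shNS cells (adjusted p = 0.00149). In shRUNX1 cells the 24 hr differences were -0.52 for CASP8AP2 and -0.18 for NPAT, and neither was called. CDC25A, a phosphatase that activates CDK2, was the 1 member called between arms, higher in shRUNX1 cells at 72 hr. Its signals there were 10.16, 9.40 and 9.92 against 9.0, 9.01 and 9.15, without overlap, a difference of 0.77 (SE 0.17, adjusted p = 0.0249). Others of this list called with time included CDK2, higher by 0.65 at 8 hr in shNS cells, and CCNE2, higher by 0.78 at 72 hr in shRUNX1 cells.

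In 3′ end processing, 16 of 17 genes were measured. SLBP, the stem-loop binding protein, rose by 0.60 at 24 hr (adjusted p = 0.00145 from limma) and 0.64 at 72 hr in shNS cells and by 0.69 at 72 hr in shRUNX1 cells. Between arms it differed by -0.13 to -0.28 and was not called. SNRPD3, a core protein of spliceosomal snRNPs, was lower in shRUNX1 cells by 0.65 at 0 hr and 0.64 at 72 hr (adjusted p = 0.0297 and 0.0301). Of 10 histone mRNA decay genes 0 was called between arms, and in shNS cells at 24 hr LSM1 (a decapping activator) rose by 0.64 and MTREX (an RNA helicase of the nuclear exosome) fell by 0.65.

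NASP, a chaperone of H3-H4 and H1, was the only one of 14 chaperones called between arms. In shNS cells its signals were 14.15, 14.33 and 14.07 at 0 hr and 13.03, 13.12 and 13.12 at 24 hr, a fall of 1.09 (SE 0.16, adjusted p = 3.22e-05 from limma). It also fell at 24 hr in shRUNX1 cells, by 0.75 (adjusted p = 0.0021), and at 72 hr it stood there at 14.18, 13.72 and 14.14, against 13.29, 12.95 and 13.65 in shNS cells. The groups at 72 hr did not overlap, and the difference was 0.72 (SE 0.16, adjusted p = 0.0276). Among replication-independent histones 7 of 12 were measured, and MACROH2A2, a variant H2A of silent chromatin, was lower by 1.00 at 0 hr in shRUNX1 cells (adjusted p = 0.0173). ATRX, which deposits H3.3 at repeats with DAXX, fell in both arms at every later time, by 0.66 to 1.00, and was the 1 called of 8 replication-independent chaperones.

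Of 33 measured genes of DNA replication and G1/S, 2 were called between arms, both lower in shRUNX1 cells at 0 hr: MCM10 by 0.64 and RRM2 by 0.79 (adjusted p = 0.0292 and 0.0297 from limma). At 0 hr 30 of the 33 were lower in shRUNX1 cells, with a median of -0.35 (all tested clusters 0.04). In shNS cells at 24 hr 6 fell, a count to be read beside the 15.7% of clusters with 1 symbol called in that comparison, among them the replicative helicase subunits MCM3 by 0.81 and MCM2 by 0.69, and SLBP, which this list also holds, rose. At 72 hr the list's median difference between arms was 0.23, with 24 of 33 higher and 0 called, while over all tested clusters the median was 0.02. From 0 to 72 hr the change of the difference was positive for 32 of 33 genes (median 0.52), with 0 called. TYMS, which makes dTMP for DNA synthesis, rose at 72 hr by 1.51 in shNS and 1.20 in shRUNX1 cells. Of 19 mitotic genes 0 was called between arms. Of 12 genes of cell cycle exit, GADD45B was lower in shRUNX1 cells at 24 hr by 1.43 (adjusted p = 0.0487), and CDKN2B and GADD45A rose in shNS cells at 24 hr by 3.67 and 2.69.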

How the data were processed

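Per the methods and labels, RNA was hybridised to Affymetrix human transcriptome arrays. The submitters' processing notes name Affymetrix Expression Console, RMA and Transcriptome Analysis Console 1.0.0.234, and signals were levelled for GC content and transformed in signal space. The authors deposited log2 values, 1 per cluster and array, already normalized, and these were not changed. Precision is set by the 3 arrays a group, since arrays carry no depth. The build of the probe annotation is not given in the sources used here. Groups came from the sample labels.

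A mean for each group was estimated with limma 3.58.1 under R 4.3.3 (lmFit, eBayes with an intensity trend, 16 residual degrees of freedom). All tests were two-sided. Clusters with 1 symbol were adjusted over 23781 clusters, others over all 67528. The methods' ANOVA, other normalizations, filters, replicate blocks and each array left out were alternatives, and leaving out both low 24 hr arrays was added after the data were seen. The members, lists and tests were chosen with earlier results of these data known. Values are given in full for the 2 largest called rises and falls of each class against 0 hr and for clusters called between arms, of which there were 0. Other clusters named with values were chosen after these were seen. The lists were histone gene transcription factors, 3′ end processing, mRNA decay, replication chaperones, replication-independent histones and their chaperones, DNA replication and G1/S, mitosis, cell cycle exit and markers of hESCs, mesendoderm, endoderm, neuroectoderm and mesenchymal cells. Of the 4 endoderm markers, CXCR4 alone was called, higher in shNS cells at 8 and 24 hr. The fit was tested on simulated data. Within an arm the replicate number and the letter mark the same series of arrays. Every same-numbered pair deviated together (r over 0.1) for 8 against 0 hr in both arms and for 24 against 0 hr in shNS cells, so values with the letter as a block are given there where they change a call or a count. Promoter motifs were searched in Python 3.11.15. Uninfected cells were not analysed here.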

Additional observations from a re-analysis of the deposited data

How the results depend on the processing

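Several counts of histone clusters called moved by over 1.5 times with the fit. The counts in this section are given without the share of all clusters called in the same fit. That share also moved: between arms at 72 hr it was 1.6% of clusters with 1 symbol, and 5.82% without shRUNX1 replicate 2 of 72 hr. The counts alone therefore do not separate a change in the histones from a change over all clusters. At 72 hr between arms the count of 0 became 2 when dim clusters were left out, 1 with a replicate block by title number and 3 with a block by letter. Only letter C occurs in both arms, so the fit with the letter block links the arms through the arrays of that letter alone. For 8 against 0 hr in shNS cells the 3 calls became 0 with the letter block, with the brightest cluster per gene and with the methods' ANOVA, and 6 with only the arrays compared. At 24 hr in shNS cells the 5 became 3 with the brightest cluster per gene and with the methods' ANOVA, and at 72 hr the 1 became 2 without dim clusters, 2 with the letter block and 4 with only the arrays compared. In shRUNX1 cells the 1 call at 8 hr became 0 when all clusters were adjusted together and with the methods' ANOVA, 2 with the letter block and 4 with only the arrays compared. The 3 at 24 hr became 1 after quantile normalization or median centring, 6 without dim clusters and 0 with the methods' ANOVA. The 0 at 72 hr became 3 after quantile normalization, 2 after median centring and 1 without dim clusters, and the 3 from 24 to 72 hr became 0 with only the arrays compared and with the methods' ANOVA. The cause was not tested.

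With each array left out in turn, the counts ranged from 0 to 0 at 0, 8 and 24 hr between arms and from 0 to 19 at 72 hr. In shNS cells they ranged from 0 to 2 at 8 hr, 2 to 6 at 24 hr, 1 to 3 at 72 hr and 0 to 0 from 24 to 72 hr. In shRUNX1 cells they ranged from 0 to 1 at 8 hr, 1 to 15 at 24 hr, 0 to 8 at 72 hr and 0 to 32 from 24 to 72 hr. For the change of the difference they were 0 to 0 from 0 to 8 hr, 0 to 0 from 0 to 24 hr and 0 to 2 from 0 to 72 hr. Between arms at 72 hr, 64 to 71 of 73 clusters were higher whichever array was left out, and at 24 hr 6 to 47. Leaving out both low 24 hr arrays gave 0 calls at 24 hr, with 23 of 73 higher and a median of -0.10.

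Among 19 differences of named clusters, the alternatives gave 234 verdicts on the same side of the threshold, 76 that lost the call and 7 that gained one, and the direction was kept in all of them. H2BC20P at 72 hr in shNS cells kept its call in all 17 alternatives. Same-numbered arrays of different times in an arm correlated in their deviations at a median r of 0.158, with 22 of 36 pairs over 0.1, and those of different arms at 0.143, with 7 of 12 over 0.1. Within comparisons, every pair was over 0.1 for 8 against 0 hr in shNS cells (r = 0.295 to 0.527) and shRUNX1 cells (0.129 to 0.169) and for 24 against 0 hr in shNS cells (0.185 to 0.421), and there the numbers were taken to pair the arrays. In the other 9 comparisons they were not. The block left the calls of named clusters at 24 hr in shNS cells in place. With the replicate block by title number H1-6 was called between arms at 72 hr (adjusted p = 0.0348 from limma). In that comparison the numbers were not taken to pair the arrays, as r was -0.036 for replicate 1.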
